A study of Mus musculus with 27 samples.

Results

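The complement components described here are 9 genes of the early complement cascade, C1qa, C1qb, C1qc, C1ra, C1s1, C2, C4b, C3 and Cfd, chosen by symbol. They were 9 of the 42375 named rows of the bulk count tables and 9 of the 32285 genes of the single-cell matrices, and all 9 had reads in both. The study, titled around a KLF10 and IL-9 signalling axis of CD4+ T cells in perivascular fibrosis, sampled the aortas of C57BL/6 mice, all of which had received angiotensin II (Ang II) for 28 days, so no group is without Ang II. Genotypes are labelled TKO and Cre, which the labels do not define further. Bulk RNA-seq covered non-stripped aorta (3 TKO and 3 Cre libraries), aorta labelled stripped, although the titles of those libraries say non-stripped (2 TKO and 4 Cre), fibroblasts isolated from digested aortas (3 TKO and 3 Cre) and non-stripped TKO aorta given an anti-IL-9 monoclonal antibody with Ang II (labelled IL9mAb, 2 libraries) or IgG with Ang II (3 libraries). Digested non-stripped aorta was also profiled by droplet single-cell RNA-seq (2 TKO and 2 Cre libraries). The labels do not say that libraries came from separate animals, so the p-values measure the spread between libraries, which may be technical.

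Complement is a cascade of plasma and tissue proteins that marks particles and cells for clearance. In the classical pathway C1q, made of the products of C1qa, C1qb and C1qc, binds antibody complexes or dying cells and carries the proteases C1r and C1s, which cleave C4 and C2 to form a convertase that cleaves C3. In the alternative pathway factor D, encoded by Cfd and also known as the adipokine adipsin, cleaves factor B bound to C3 fragments. Liver makes most circulating complement, while tissue macrophages are the main source of C1q, and stromal cells and fat make other components locally.

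The 3 C1q chain genes lie side by side on chromosome 4 (GRCm38), C1qb at chr4:136880129-136886187, C1qc at chr4:136889804-136893065 and C1qa at chr4:136895917-136898803, all on the minus strand. C1ra (chr6:124512405-124523443, plus strand) and C1s1 (chr6:124530345-124542359, minus strand) are neighbours on chromosome 6. C2 (chr17:34862604-34898265), C4b (chr17:34728380-34743882) and C3 (chr17:57203970-57228136) lie on the minus strand of chromosome 17, and Cfd lies at chr10:79890853-79892655 on the plus strand. RefSeq promoter entries (GRCm38.p6) matched 6 of the 9 symbols, C1qb, C1qc, C1ra, C1s1, C3 and Cfd. The 250 bases before the start site are shown for the C1q chains that have an entry, since the chains moved together across cell classes and libraries, and for C3 and Cfd, which had the highest levels per kilobase of exon in non-stripped aorta. The start sites are those of RefSeq and can differ from the gene ends given above. The C1qc stretch lies partly inside the C1qc span given above. Capitals mark matches, on either strand, to GAGGAA, a core letter sequence bound by the myeloid factor PU.1, and to TTGCNNAA, bound by C/EBP factors of liver, fat and myeloid cells.
C1qb, chr4:136886201-136886450, minus strand: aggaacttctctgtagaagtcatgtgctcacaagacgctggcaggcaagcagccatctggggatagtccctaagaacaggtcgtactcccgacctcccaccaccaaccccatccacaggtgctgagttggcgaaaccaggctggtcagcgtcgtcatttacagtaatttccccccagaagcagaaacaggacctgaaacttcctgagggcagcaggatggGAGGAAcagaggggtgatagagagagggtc
C1qc, chr4:136892915-136893164, minus strand: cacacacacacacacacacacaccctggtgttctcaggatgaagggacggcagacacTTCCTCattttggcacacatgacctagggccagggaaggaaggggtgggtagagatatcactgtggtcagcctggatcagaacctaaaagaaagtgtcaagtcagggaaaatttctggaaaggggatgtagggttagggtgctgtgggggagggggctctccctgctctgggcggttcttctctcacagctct
C3, chr17:57228137-57228386, minus strand: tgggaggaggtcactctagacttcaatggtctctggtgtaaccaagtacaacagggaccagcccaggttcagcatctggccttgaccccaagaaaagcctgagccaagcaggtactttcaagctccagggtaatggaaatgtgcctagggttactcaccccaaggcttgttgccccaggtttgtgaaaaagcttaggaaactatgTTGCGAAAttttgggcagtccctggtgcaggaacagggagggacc
Cfd, chr10:79890603-79890852, plus strand: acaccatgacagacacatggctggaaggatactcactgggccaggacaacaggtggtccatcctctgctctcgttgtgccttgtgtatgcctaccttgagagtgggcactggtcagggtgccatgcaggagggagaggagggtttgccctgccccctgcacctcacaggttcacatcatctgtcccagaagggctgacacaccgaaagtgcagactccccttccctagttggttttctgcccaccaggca
The PU.1 letters began at position -30 from the start site in C1qb and at -193 in C1qc, and the C/EBP letters at -45 in C3, while the Cfd stretch held neither. Of all 32851 RefSeq promoter stretches of this length, 23.25% held the PU.1 letters and 9.564% the C/EBP letters, so the matches are a description of these sequences only. C1ra held neither motif, and 1 of the 2 C1s1 stretches held the C/EBP letters.

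Sequencing depth ran from 17179257 to 38633457 counts over the 23 bulk libraries. Klf10 ranged from 0 to 41.3 CPM (counts scaled to a common library total) in TKO and from 40.7 to 65.7 in Cre non-stripped libraries, from 20.6 to 37.3 in TKO and from 29.7 to 62.8 in Cre stripped libraries, and from 58.3 to 71.2 in TKO and from 61.0 to 73.3 in Cre fibroblasts, so it did not mark the genotype of every library. Il9 had counts in 1 of the 23 bulk libraries. The single-cell matrices held 114998 barcodes, of which 43812 passed the filters, 15365 and 7425 in TKO 1 and TKO 2 and 14489 and 6533 in Cre 1 and Cre 2, with medians of 1409 to 2768 unique molecular identifiers (UMIs) per cell. Each pair of libraries shared 175 to 338 barcodes, 12 to 68 of them among kept cells. Cells were clustered without the complement genes, and 24 of 33 clusters were named after marker lists, each as a class that resembles a cell type ("macrophage-like" and so on); 6.72% to 24.6% of cells per library stayed unnamed, the lowest share in Cre 1. The filter on mitochondrial share alone removed 913 and 1149 barcodes in TKO 1 and TKO 2, against 2529 and 7521 in Cre 1 and Cre 2.

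The 9 genes differed in the cell class where their level was highest. The C1q chains were highest in macrophage-like cells. C1ra, C1s1, C2 and C3 were highest in mesothelial-like cells. Fibroblast-like cells overlapped those for C1ra and C1s1 and lay below them in every library for C2 and C3. C4b and Cfd were highest in adipocyte-like cells, with macrophage-like cells overlapping them for C4b. These levels are CPM of UMIs summed per class and library, given as the mean with the SD over the 4 libraries, and they are a description of rebuilt classes with no test. The class with the highest level was the same for every member with a stricter gene filter, finer clustering, doublets kept, or any 1 library left out.

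**Figure D1:**
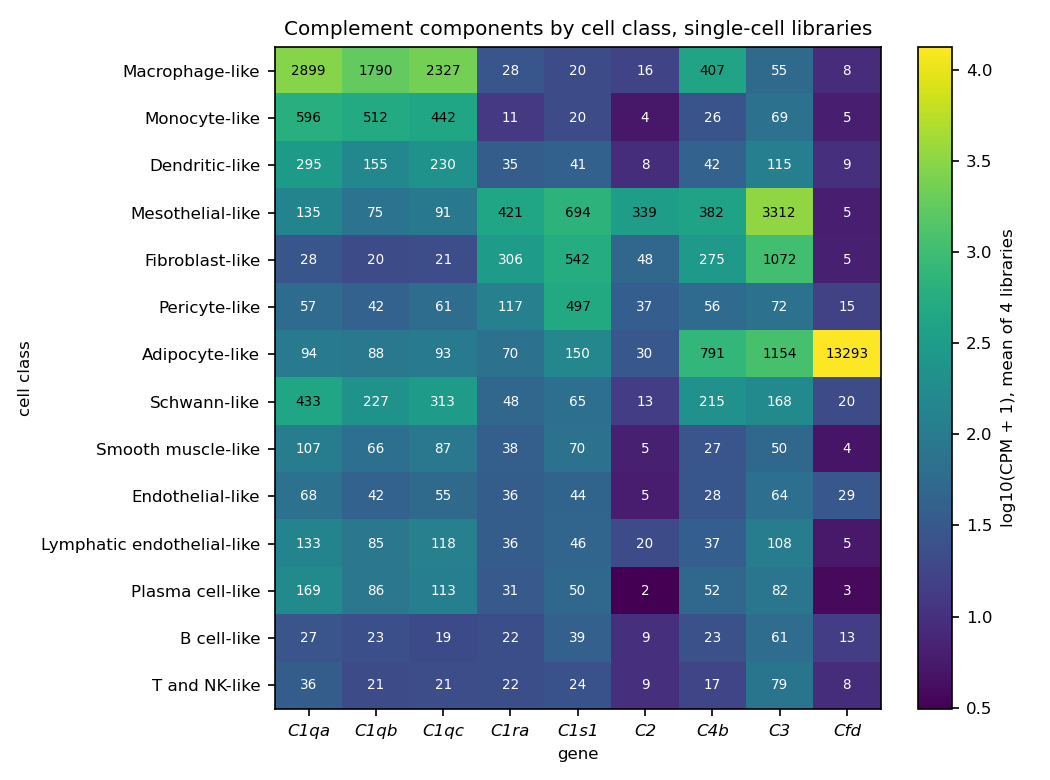
Level of each complement component (columns) in each of 14 cell classes (rows), as the mean CPM of summed UMIs over the 4 single-cell libraries; colour is log10(CPM + 1) and the printed number is the mean CPM. The C1q chains are bright in the macrophage-like row, C3 in the mesothelial-like row and Cfd almost only in the adipocyte-like row.

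C1qa, C1qb and C1qc averaged 2899 ± 726, 1790 ± 319 and 2327 ± 473 CPM in macrophage-like cells. The monocyte-like class, led by Lyz1, Ear2 and Mmp12, came second at 596 ± 222, 512 ± 197 and 442 ± 180 CPM, and its 4 libraries lay below all 4 macrophage-like values for each chain. In this class macrophage markers summed to 5864 to 10103 CPM and monocyte markers to 1081 to 1791 CPM. At finer clustering a cluster of 1119 cells led by Lyz1, Ear2 and Retnla stayed unnamed. The C1q level of the class may therefore describe a mixture of myeloid cells. From the monocyte-like class downward, neighbouring classes overlapped at every step for C1qa, which ended at 27.1 ± 12.9 CPM in B cell-like cells. C1qa had a UMI in 97.2% of macrophage-like cells and in 5.83% of T and NK-like cells, which should lack it, at median depths of 1905 and 1592 UMIs per cell; thinned to 1000 UMIs per cell, the shares were 91.6% and 3.54%. A share near the lymphocyte level, such as the 4.61% of fibroblast-like cells, is read as background.

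The macrophage-like class held clusters with different C1q levels. The cluster led by Hal, Cd209f and Cd163, a haemoglobin scavenger receptor, had 3728 ± 454 CPM of C1qa, against 2575 ± 241 CPM in the cluster led by Ccl8, Ms4a7 and Folr2, and the libraries of these clusters did not overlap. C4b followed the same order at 639 ± 131 and 343 ± 61 CPM. The Hal cluster held 2271 of the 2471 macrophage-like cells of Cre 1 but only 59, 43 and 33 cells of TKO 1, TKO 2 and Cre 2, so class averages of Cre 1 describe another mixture of clusters than those of the other libraries.

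The proteases that C1q carries were stromal. C1ra averaged 421 ± 103 CPM in mesothelial-like and 306.5 ± 93.3 CPM in fibroblast-like cells, whose libraries overlapped. It averaged 117 ± 44 CPM in pericyte-like cells, below all fibroblast-like values. C1s1 averaged 694 ± 107 CPM in mesothelial-like, 542 ± 145 in fibroblast-like and 497 ± 95 in pericyte-like cells, each overlapping the next. All 3 stood above the 150 ± 38 CPM of adipocyte-like cells. By number of UMIs, fibroblast-like cells held on average 67.5% of C1ra and 69.7% of C1s1 UMIs, being 11208 cells against 627 mesothelial-like cells.

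C2, the protease partner of C4 in the classical convertase, was 7.06-fold higher in mesothelial-like cells than in the next class. It averaged 339 ± 68 CPM in mesothelial-like cells, with a range of 283 to 432, against 47.9 ± 17.4 CPM in fibroblast-like cells, with a range of 28.9 to 70.9. C3, the substrate of both convertases, averaged 3312 ± 610 CPM in mesothelial-like cells, above every value of the adipocyte-like (1154 ± 505) and fibroblast-like (1072 ± 392.02) classes, which overlapped each other. C3 had a UMI in 96.8% of mesothelial-like cells (89.9% when thinned), 57.0% of fibroblast-like cells (47.4% when thinned) and 7.93% of B cell-like cells (5.55% when thinned). Fibroblast-like cells held on average 63.7% of C3 UMIs and mesothelial-like cells 16.8%.

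C4b, whose product is cleaved by C1s, was the most widely spread member. Its means formed a chain of overlapping neighbours, 791 ± 255 CPM in adipocyte-like, 407.1 ± 142.1 in macrophage-like, 382 ± 88 in mesothelial-like, 275 ± 45 in fibroblast-like and 215 ± 56 CPM in Schwann-like cells, before a gap to 56.4 ± 29.6 CPM in pericyte-like cells. Fibroblast-like and macrophage-like cells held 36.5% and 33.3% of its UMIs. Cfd averaged 13293 ± 2960 CPM in the 111 adipocyte-like cells, 452-fold above the 29.4 ± 10.4 CPM of endothelial-like cells, and 87.2% of its UMIs lay in adipocyte-like cells. Within the endothelial-like class Cfd was at 40.6 ± 6.7 CPM in the cluster led by Gpihbp1, Aqp7 and Fabp4, and at 7.30 ± 5.34 CPM in the cluster led by Cytl1, Bmp4 and Vwf.

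Fibroblast-like clusters had different levels of C1s1, C2, C3 and C4b. The cluster led by Penk, C7 and Ccl11 had the highest C3 (1837 ± 296 CPM), C4b (577 ± 50) and C1s1 (821 ± 132). The cluster led by Pla1a, Gfpt2 and Cd248 had 1320 ± 421 CPM of C3 and the lowest C2, 14.8 ± 2.4 CPM. The cluster led by Thbs4 and Fmod had 549 ± 333 CPM of C3, and the cluster led by Dio2 and Rbp4 had 345 ± 105 CPM of C3 with 67.7 ± 19.5 CPM of C2. C4b of the Penk cluster lay above the other 3 clusters in all 4 libraries, and C2 of the Pla1a cluster lay below them in all 4 libraries.

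**Figure D2:**
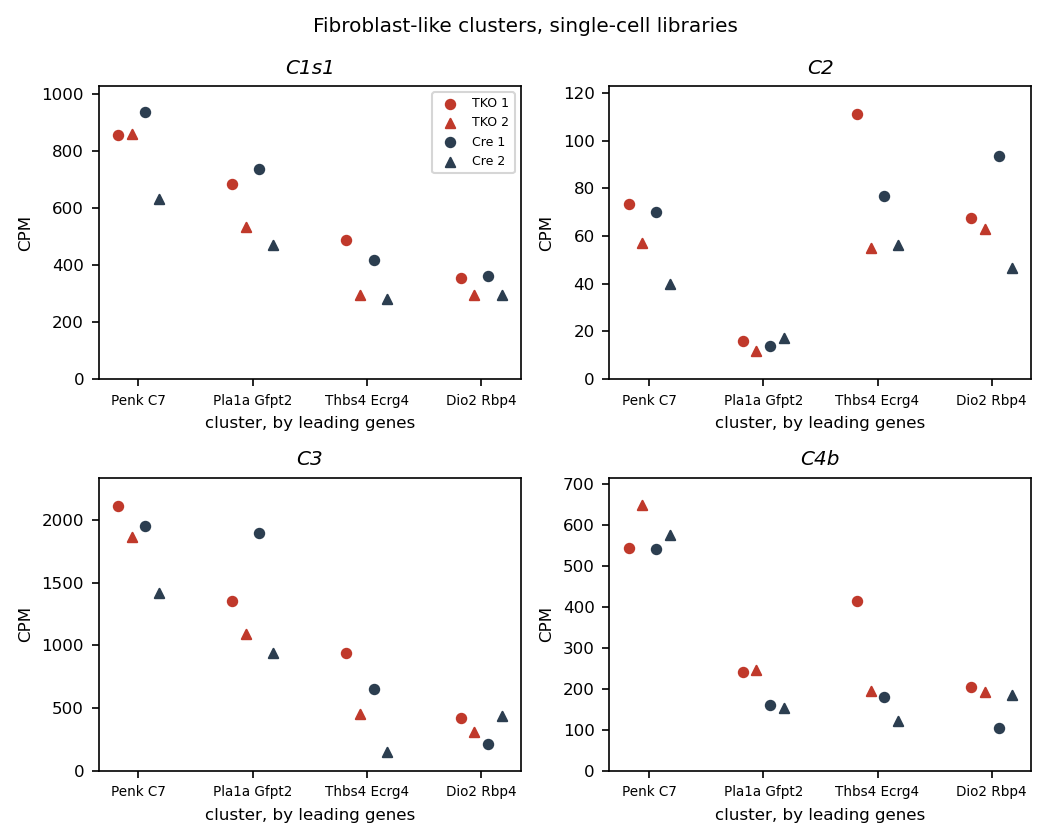
CPM of C1s1, C2, C3 and C4b in 4 fibroblast-like clusters named by their leading genes; each point is 1 single-cell library (TKO red, Cre dark; circle replicate 1, triangle replicate 2). C4b and C1s1 are highest in the Penk C7 cluster, C2 is lowest in the Pla1a Gfpt2 cluster, and TKO and Cre points mix in most panels.

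The genes whose pattern was most like each member's were taken by Pearson's r of log2(CPM + 1) over 56 points, 14 classes in each of 4 libraries. The points share libraries and depth, so r is a description. For C1qa they were Mrc1 (r 0.950), F13a1 (0.943) and Csf1r (0.936), and for C1qc F13a1 (0.959), C3ar1 (0.955) and Ms4a7 (0.941). For C1ra they were Gas1, Bicc1 and Clec3b, for C1s1 Gas1, Pcolce and Bicc1, for C2 Fras1, Igfbp4 and Bicc1, for C3 Efemp1, Bnc2 and Cpxm1, and for C4b Mt2, Igf1 and Selenbp1. For Cfd they were Car3, Adig and Retn, genes of fat. Among members, the C1q chains stood at r 0.966 to 0.973 with one another and C1ra with C1s1 at 0.910, while C1qa with C1s1 gave -0.34.

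Other complement genes filled in the same map of sources. Fcna, a ficolin of the lectin pathway, was at 411 ± 118 CPM in macrophage-like cells, with its next class at 42.3 ± 35.4. The anaphylatoxin receptors C3ar1 (435 ± 96 CPM) and C5ar1 (418 ± 71 CPM) and the C3b receptor Vsig4 (41.7 ± 11.0 CPM) were also highest there. Cfp, the stabiliser of the alternative convertase, was at 373 ± 99 CPM in macrophage-like and 283 ± 50 CPM in monocyte-like cells. The C1 inhibitor gene Serping1 was about level in fibroblast-like (1283 ± 452 CPM) and mesothelial-like cells (1264 ± 330 CPM). Cfb, the substrate of factor D, was at 124 ± 33 CPM in mesothelial-like and 94.4 ± 17.8 CPM in adipocyte-like cells, which overlapped. Highest in 1 class were the collectin Colec11 in pericyte-like cells at 146 ± 33 CPM and Cr2, a complement receptor of B cells, in B cell-like cells at 268 ± 50 CPM. Of the terminal pathway, C7 reached 67.5 ± 66.9 CPM in fibroblast-like and C6 79.1 ± 37.7 CPM in macrophage-like cells, both overlapping the adipocyte-like class, while Hc, C8a, C8g and C9 had 11, 1, 20 and 3 UMIs in all. C1rb, C1s2 and C4a, close copies of C1ra, C1s1 and C4b, had 8, 15 and 18 UMIs, and the handling of reads that fit several copies is not stated in the labels, so the values of C1ra, C1s1 and C4b are uncertain to that extent.

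Anti-IL-9 antibody gave the only bulk comparison in which complement genes passed the test. All 9 components were lower in IL9mAb than in IgG libraries of TKO aorta by edgeR's quasi-likelihood test with Benjamini-Hochberg adjustment over all genes tested, against 11% of the 16463 genes tested that were called lower, 21% called higher and 32.1% called in either direction. The groups overlapped for none of the 9, against 59.8% of all genes whose groups did not overlap. The median log2 fold change of the 9 was -1.54, that of all genes -0.01. Values here and below are CPM scaled by TMM factors. The non-stripped TKO libraries of the genotype comparison, deposited separately, had means below those of IgG for all 9, with no test. C1qa averaged 34.8 CPM there, 42.9 in IL9mAb and 122 in IgG, and C1ra 22.3, 23.5 and 68.5 CPM. C3 averaged 878 CPM there, 480 in IL9mAb and 1646 in IgG. Treatment and table cannot be told apart in this side-by-side view.

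C1qa had 44.9 and 41.0 CPM in IL9mAb libraries, against 94.2, 160 and 112 CPM in IgG libraries, a log2 fold change of -1.51 ± 0.23 (SE, adjusted p = 0.00321). C1qb had 29.5 and 29.0 CPM in IL9mAb, against 75.1, 117 and 82.4 CPM in IgG (-1.65 ± 0.21, adjusted p = 0.00131). C1qc had 30.6 and 25.3 CPM in IL9mAb, against 66.2, 112 and 74.6 CPM in IgG (-1.59 ± 0.25, adjusted p = 0.00317). For all 3 chains IgG 2 was the highest library and both IL9mAb libraries lay well below the lowest IgG value.

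C1ra had 28.0 and 18.9 CPM in IL9mAb, against 70.9, 68.5 and 66.1 CPM in IgG (-1.54 ± 0.18, adjusted p = 0.000883). C1s1 had 65.6 and 43.0 CPM in IL9mAb, against 153, 160 and 144 CPM in IgG (-1.49 ± 0.20, adjusted p = 0.00159). C2 had 11.98 and 6.67 CPM in IL9mAb, against 26.2, 23.6 and 27.1 CPM in IgG (-1.45 ± 0.25, adjusted p = 0.00471). For these 3 genes the IgG libraries were tight and IL9mAb 2 was the lowest library.

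C4b, with the largest difference, had 165 and 123 CPM in IL9mAb, against 524, 837 and 449 CPM in IgG, 4.19-fold lower (log2 -2.07 ± 0.31, adjusted p = 0.00284). C3 had 428 and 533 CPM in IL9mAb, against 1323, 1922 and 1693 CPM in IgG, 3.43-fold lower (-1.78 ± 0.24, adjusted p = 0.00173). Cfd had 1520 and 1249 CPM in IL9mAb, against 4098, 2223 and 3783 CPM in IgG (-1.28 ± 0.32, adjusted p = 0.0221). Cfd was the least secure of the 9: leaving out IgG 1, IgG 3, IL9mAb 1 or IL9mAb 2 gave adjusted p of 0.0666, 0.0729, 0.0549 and 0.0796, whereas leaving out IgG 2, its lowest IgG library, gave 0.00892. The other 8 passed in every fit with a library left out.

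**Figure D3:**
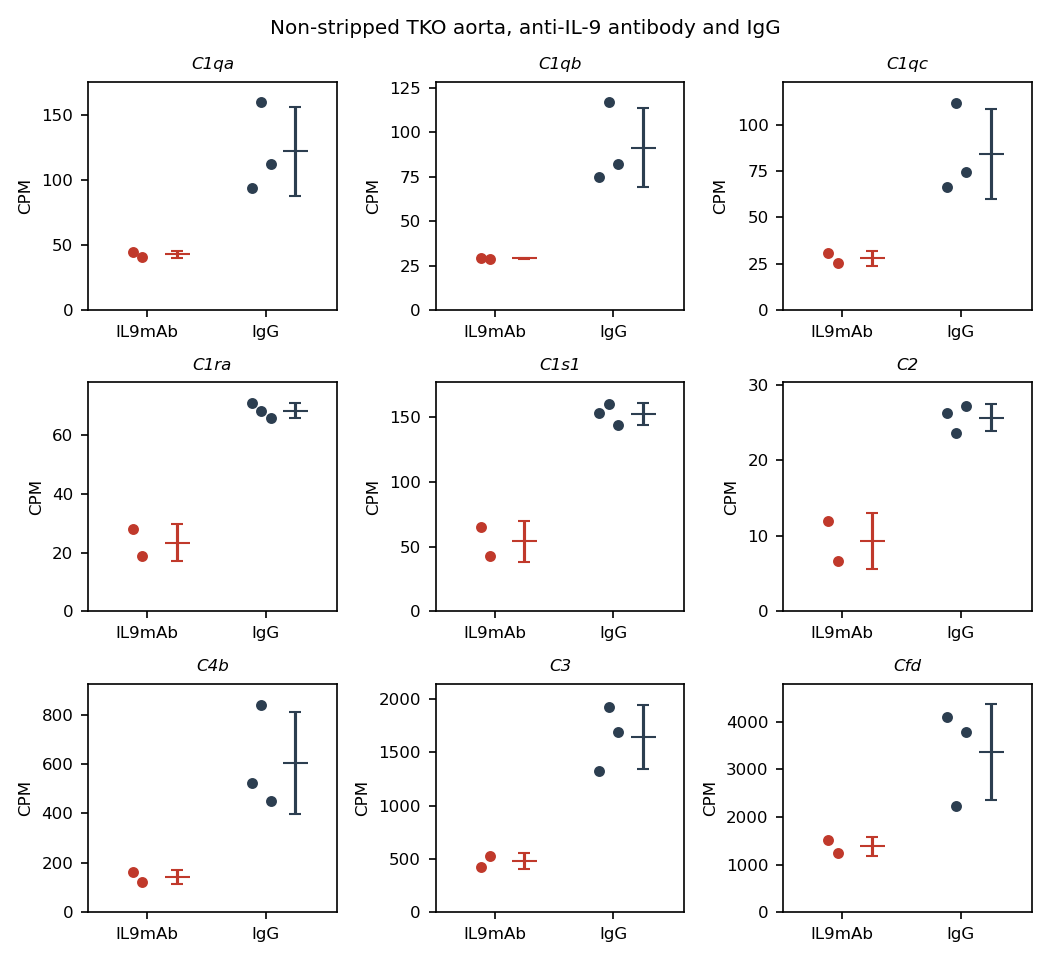
CPM of the 9 complement components in non-stripped TKO aorta, 2 IL9mAb libraries (red, left) and 3 IgG libraries (dark, right); points are libraries and the bar beside them is the mean ± SD. In every panel both IL9mAb points lie below all IgG points, with the closest approach in Cfd (1520 against 2223 CPM).

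The wider complement lists, which include the 9 members, moved mostly the same way, though many of their other genes were not called. Over all genes tested, 11% were called lower and 21% higher. Of 14 initiation genes tested 11 had negative and 3 positive fold changes. In that list 8 were called lower and none higher, and Fcna was the only non-member called (3.97 ± 1.59 CPM in IL9mAb, 18.2 ± 7.9 in IgG, log2 -2.18). All 4 genes of the C3 and alternative pathway list were lower, Cfb by -1.44 and Cfp by -1.13 beside C3 and Cfd. All 7 terminal genes had negative fold changes and 1 was called lower, C7 (24.5 ± 5.4 CPM in IL9mAb, 50.3 ± 7.2 in IgG). Among the regulators, those called included Serping1 (85.5 ± 14.96 CPM in IL9mAb, 279 ± 20 in IgG; log2 -1.70) and Cr1l (-0.45), which were lower, and Susd4, a membrane inhibitor, which was higher (16.0 ± 2.8 CPM in IL9mAb, 2.88 ± 0.89 in IgG; log2 2.47). Among 8 receptors C3ar1, C5ar1, Itgam and Cd93 were called lower, by -1.51, -1.60, -1.68 and -1.12, and Cr2 was called higher. Cr2 had 10.98 and 1.20 CPM in IL9mAb, against 0.318, 0 and 0.313 CPM in IgG, so IL9mAb 1 carried most of the value, and the adjusted p was 0.158 without IL9mAb 1 and 0.0555 without IgG 3. The 5 B cell markers summed to 18.4 to 97.2 CPM in IL9mAb and 4.82 to 12.9 in IgG, with 5 positive and 2 called higher, and their part in the Cr2 value was not tested.

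Markers of the cell classes that hold these genes moved in the same libraries. All 8 fibroblast markers were lower, with summed levels of 1446 to 2071 CPM in IL9mAb and 4078 to 11494 in IgG and a median log2 of -1.53. All 9 macrophage markers had negative fold changes and 7 were called lower (199 to 250 CPM in IL9mAb, 528 to 973 in IgG, median -1.66). All 6 mesothelial markers were called lower (4.26 to 7.01 CPM in IL9mAb, 133 to 305 in IgG, median -4.94). All 6 adipocyte markers had negative fold changes and 5 were called lower (3043 to 3920 CPM in IL9mAb, 5712 to 7113 in IgG). All 5 neuron markers were called higher (3095 to 3270 CPM in IL9mAb, 207 to 457 in IgG). All 7 smooth muscle and all 6 Schwann markers had positive fold changes, with 6 and 5 called higher. Hepatocyte markers summed to 284 to 432 CPM in IL9mAb and 484 to 642 in IgG libraries, against at most 22.0 CPM in any library of the other 3 tables. The part of these marker shifts in the lower levels of complement genes was not tested. In whole tissue fewer cells of a type and less RNA per cell cannot be told apart.

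In the genotype comparisons no component passed the test in any bulk table. In non-stripped aorta 18 of 15162 genes (0.119%) were called by edgeR; of the members 0 were called, 0 had an unadjusted p under 0.05, and DESeq2, which called 801 genes, called 0. C1qa had 36.2, 32.6 and 35.6 CPM in TKO, against 41.5, 30.4 and 34.4 CPM in Cre. C1ra had 21.3, 19.1 and 26.6 CPM in TKO, against 20.2, 20.3 and 28.2 CPM in Cre, and C3 had 894, 874 and 867 CPM in TKO, against 811, 1006 and 894 CPM in Cre. All 9 members overlapped between genotypes, where 25.5% of all genes did not, and their log2 fold changes lay between -0.04 and 0.17 (adjusted p 0.791 to 0.932). C4b and Cfd had the widest spread. C4b had 310, 182 and 94.1 CPM in TKO, against 127, 161 and 232 CPM in Cre. Cfd had 2217, 1908 and 920 CPM in TKO, against 1132, 1619 and 1793 CPM in Cre. Both were lowest in TKO 3. Per kilobase of exon, Cfd was the highest member in these libraries (997 to 2404 CPM per kilobase) and C3 next (158 to 196), while C2 was lowest (1.69 to 3.26).

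**Figure D4:**
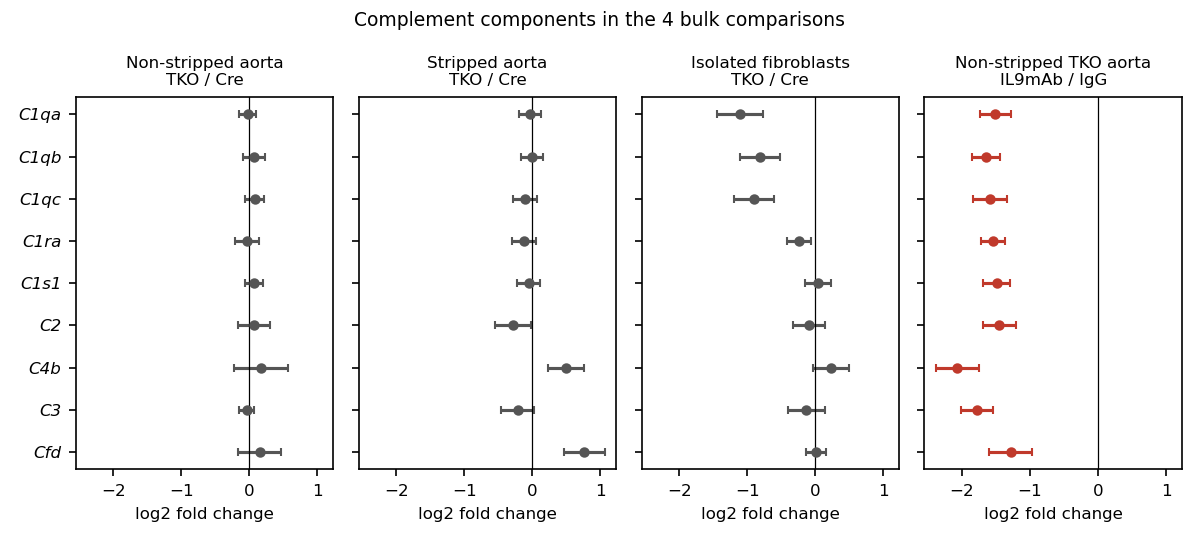
log2 fold change of each complement component in the 4 bulk comparisons, TKO over Cre in the first 3 panels and IL9mAb over IgG in the last; points are edgeR estimates, bars 1 SE, and red marks an adjusted p under 0.05. All 9 lie left of 0 in the anti-IL-9 panel and none is red in the genotype panels.

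In aorta labelled stripped, 4 of 16688 genes (0.024%) were called by edgeR and 0 members; DESeq2 called 536 genes and 0 members, and 1 member, Cfd, had an unadjusted p under 0.05. C1qa had 327 and 278 CPM in TKO, against 375, 268, 323 and 270 CPM in Cre, and C3 had 1140 and 739 CPM in TKO, against 1350, 1182, 853 and 960 CPM in Cre. Cfd had 1581 and 820 CPM in TKO, against 539, 615, 727 and 942 CPM in Cre (log2 0.77 ± 0.30, adjusted p = 0.327). TKO 1 was above all Cre libraries and TKO 2 within them, where 23.6% of all genes had groups that did not overlap. Adipocyte markers, 6 of 6 positive with none called, summed to 1115 to 1799 CPM in TKO and 360 to 765 CPM in Cre libraries, and their part in the Cfd value was not tested. C4b had 1010 and 639 CPM in TKO, against 794, 530, 429 and 590 CPM in Cre (log2 0.49 ± 0.27, adjusted p = 0.465).

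A direct test of the genotype effect in one tissue against the other called 1 of 17501 genes (0.00571%) and 0 members, with 0 members at an unadjusted p under 0.05 and 0 by DESeq2, which called 878 genes. The differences, non-stripped minus stripped, ran from -0.62 for Cfd to 0.34 for C2, and the smallest adjusted p was 0.539. Set side by side across separately deposited tables, with no test, some members differed in level and others overlapped. C1ra stood at 19.1 to 28.2 CPM in non-stripped and 277 to 429 CPM in stripped libraries, C1qa at 30.4 to 41.5 CPM in non-stripped and 268 to 375 CPM in stripped, while the ranges overlapped for C3, at 811 to 1006 CPM in non-stripped and 739 to 1350 CPM in stripped, and for Cfd, at 920 to 2217 CPM in non-stripped and 539 to 1581 CPM in stripped. Summed fibroblast markers stood at 887 to 1332 CPM in non-stripped and 27543 to 45861 CPM in stripped libraries. Mitochondrial genes took 16.9% to 21.0% of counts in non-stripped and 3.16% to 9.11% in stripped libraries. Tissue and table cannot be told apart here.

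In isolated aortic fibroblasts the 3 C1q chains had lower levels in every TKO library than in every Cre library, but none passed the test. C1qa had 30.9, 20.1 and 28.1 CPM in TKO, against 42.5, 91.5 and 36.4 CPM in Cre (log2 -1.11 ± 0.34, adjusted p = 0.280). C1qb had 18.6, 12.8 and 16.1 CPM in TKO, against 22.1, 41.9 and 19.1 CPM in Cre (-0.81 ± 0.29, adjusted p = 0.332). C1qc had 22.4, 13.4 and 17.9 CPM in TKO, against 27.4, 49.4 and 23.0 CPM in Cre (-0.90 ± 0.30, adjusted p = 0.297). Cre 2 was the highest library for each chain. Groups did not overlap for 17.3% of all genes, and 10 of 15673 genes (0.0638%) were called. DESeq2 called 424 genes and 1 member, C1qb (adjusted p = 0.0490), and the fit with no filter on low counts called all 3 chains; over all alternatives the adjusted p of C1qa ran from 0.000733 to 0.653.

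These libraries also carried macrophage transcripts. The 9 macrophage markers were all lower in TKO with 0 called, summing to 486 to 673 CPM in TKO and 795 to 2264 CPM in Cre libraries, with a median log2 of -1.14. The part of those transcripts in the C1q values was not tested. The receptors C5ar1 (12.1 ± 2.8 CPM in TKO, 44.9 ± 20.7 in Cre, adjusted p = 0.137) and C5ar2 (0.532 ± 0.422 in TKO, 3.45 ± 1.23 in Cre, adjusted p = 0.184) and the ficolin Fcna (1.04 ± 0.32 in TKO, 3.54 ± 0.98 in Cre, adjusted p = 0.146) were listed in the same direction, and 7 of 8 receptor genes had negative fold changes with 0 called.

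The stromal components overlapped between genotypes in isolated fibroblasts. C3 had 274, 157 and 138 CPM in TKO, against 153, 255 and 215 CPM in Cre, C1s1 had 25.2, 24.9 and 18.6 CPM in TKO, against 16.3, 24.7 and 26.0 CPM in Cre, and C4b had 65.0, 43.5 and 32.9 CPM in TKO, against 28.6, 44.7 and 46.9 CPM in Cre. TKO 1 was the highest library for C3 and C4b and Cre 1 the lowest for C4b and C1s1. C1ra, C2 and Cfd lay between 11.4 and 19.8, 3.66 and 6.45, and 11.1 and 14.5 CPM over the 6 libraries.

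**Figure D5:**
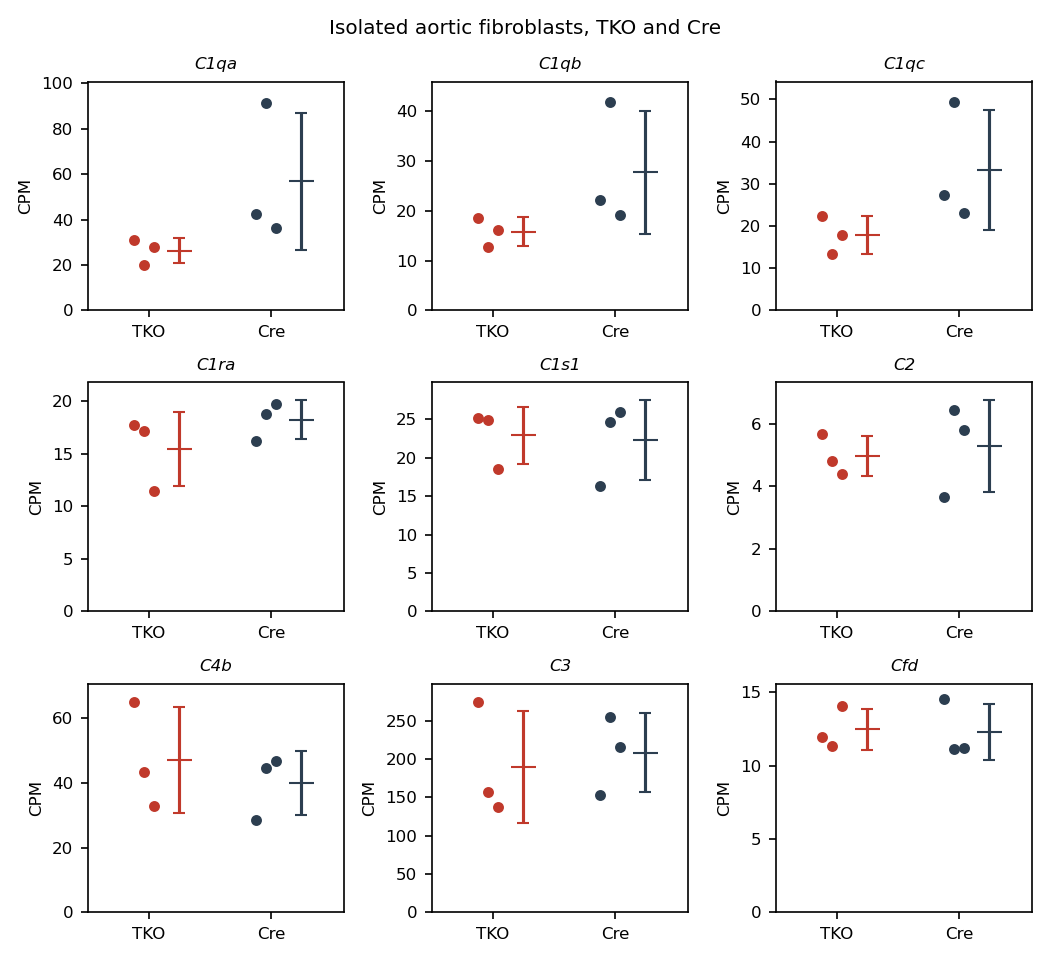
CPM of the 9 complement components in isolated aortic fibroblasts, 3 TKO libraries (red, left) and 3 Cre libraries (dark, right); points are libraries and the bar beside them is the mean ± SD. The TKO points of the 3 C1q chains lie below all Cre points, with 1 high Cre library, and the other 6 genes overlap.

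Within cell classes, TKO was compared with Cre on UMIs summed per library, 2 against 2, in 103 member and class combinations over 14 classes. Class values from these fits are CPM over the genes that passed the count filter, scaled by TMM factors. They are not on the scale of the class levels above or of the cluster values and marker sums below, which use all UMIs. In these fits 73 of 97894 gene and class combinations (0.0746%) were called, and of the members 1. Of the 103 member combinations 32 had an unadjusted p under 0.05, against 3.8% of all combinations, and 75 had a positive fold change, against 49.4% of all. The combinations of 1 class share libraries and are not independent. In the class where each member was highest, none passed. In fibroblast-like cells C3 had 945.1 and 828.7 CPM in TKO, against 1586 and 904 CPM in Cre (log2 -0.49 ± 0.35, adjusted p = 1.00). The mixture of clusters differed here too: the Thbs4 cluster, low in C3, held 1068 and 375 cells of TKO 1 and TKO 2, against 81 and 54 of Cre 1 and Cre 2, and the Penk cluster, high in C3, held 1713 of the 3661 fibroblast-like cells of Cre 1. Within each of the 4 clusters C3 overlapped between genotypes, in the Penk cluster at 2110 and 1863 CPM in TKO, against 1954 and 1420 CPM in Cre. In macrophage-like cells C1qa had 2419 and 2773 CPM in TKO, against 3889 and 2556 CPM in Cre (log2 -0.31 ± 0.41, adjusted p = 1.00); in the Ccl8 cluster alone 2526 and 2586 CPM in TKO, against 2885 and 2301 CPM in Cre. In mesothelial-like cells C3 had 3553 and 3253 CPM in TKO, against 4635 and 3317 CPM in Cre, and in adipocyte-like cells Cfd had 13577 and 21237 CPM in TKO, against 20823 and 15886 CPM in Cre.

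The called value was C3 in B cell-like cells, a class with little C3. It had 144 and 49.6 CPM in TKO, against 20.5 and 26.3 CPM in Cre (log2 2.20 ± 0.44, adjusted p = 0.0499, where 0.667% of 7799 genes were called). The class drew on different clusters in the libraries: the cluster led by Pax5, Fcer2a and Cd79b held 1212 cells of Cre 1, 10 of Cre 2 and 0 of either TKO library, and the cluster led by Ms4a1, Fcmr and Cr2 held 853 and 346 cells of TKO 1 and TKO 2, against 51 and 353 of Cre 1 and Cre 2. Within the Ms4a1 cluster alone the groups overlapped, with C3 at 152.5 and 47.0 CPM in TKO, against 71.4 and 25.0 CPM in Cre. In the whole class TKO 1 stood far above the other 3 libraries; without it the adjusted p was 0.999, without Cre 1 it was 0.204, and with DESeq2, with RLE factors and with marked doublets kept it was 0.0698, 0.0568 and 0.112, in a range of 5.92e-08 to 0.999 over all alternatives. Macrophage-like cells had the same order at low levels: C3 had 108 and 61.9 CPM in TKO, against 27.2 and 18.6 CPM in Cre (log2 1.86 ± 0.34, adjusted p = 0.258), and C1s1 had 39.2 and 25.9 CPM in TKO, against 5.13 and 8.93 CPM in Cre (log2 2.37 ± 0.38, adjusted p = 0.228). DESeq2 called these, with adjusted p of 0.00945 and 0.0139, over ranges of 6.20e-08 to 1.00 and 1.55e-12 to 1.00.

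Fibroblast transcripts moved in these same classes. The 8 fibroblast markers summed to 1983 and 1218 CPM in TKO and 229 and 417 CPM in Cre macrophage-like cells, and to 3175 and 1956 CPM in TKO and 409 and 751 CPM in Cre B cell-like cells. They also summed to 3881 and 4702 CPM in TKO and 864 and 900 CPM in Cre plasma cell-like cells. In the other classes both TKO sums were likewise above both Cre sums, except in mesothelial-like and pericyte-like cells, where they overlapped. The part of these transcripts in the C3 and C1s1 values, or in the member counts given here and above, was not tested. Over all members and classes, both TKO libraries lay above both Cre libraries in 34 of the 103 combinations, against 14.4% of all gene and class combinations, and below them in 2. By member this was 7 of 13 classes for C3, 6 of 13 for C1s1, 6 of 13 for C1ra, 5 of 13 for C4b, 3 of 14 for C1qc, 2 of 5 for C2, 2 of 7 for Cfd, 2 of 13 for C1qa and 1 of 12 for C1qb. For C3 the classes did not include mesothelial-like, adipocyte-like or fibroblast-like cells, where C3 was highest.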

How the data were processed

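The authors deposited raw gene counts for 23 bulk libraries in 4 tables and UMI counts for 4 single-cell libraries. Per the submitters' processing notes, bulk reads were handled with Trimmomatic 0.36, STAR 2.5.2b and featureCounts of Subread 1.5.2 on GRCm38, and single-cell reads with Cell Ranger 6.0.0; strand setting and annotation are not given in the sources used here. Deposited count values were used as they stand, without 1 column that matched no sample; unnamed rows took up to 0.0025% of a library. The titles of the 6 stripped libraries say non-stripped, and the other labels were followed.

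Each bulk table was tested alone with edgeR 4.0.16 (quasi-likelihood, filterByExpr minimum count 10, TMM factors, Benjamini-Hochberg threshold 0.05), and the difference of the genotype effect between tissues as an interaction over 12 libraries. Exon lengths and positions came from a GENCODE annotation of GRCm38. Floors and intervals are not given, and counting error is only part of the spread between libraries. The lowest values, such as C5ar2 in TKO non-stripped aorta and Cr2 in IgG libraries, rest on few counts.

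Single cells with at least 500 genes, 1000 UMIs and at most 15% mitochondrial counts were clustered in scanpy 1.11.5 (30 components, 20 neighbours, Leiden resolution 1) without the complement genes, summed per class and library, and tested in the 14 classes with 20 or more cells in every library. The doublet caller's own threshold marked 0 cells, so cells above a score of 0.2 (3.37% to 4.68%) were left out; this score and the share of 0.55 used to leave mixed clusters unnamed were set after seeing the data. DESeq2 1.42.0, other scaling factors, no filter, other clustering and each library left out were the alternatives, and the fits were tested on simulated data. Named genes were the members, genes of 5 complement lists past the threshold or with the smallest p, 3 genes of most similar pattern and 23 marker lists, all chosen with earlier results of these data known. The values of 1 regulator gene are not reported here.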

Additional observations from a re-analysis of the deposited data

How the results depend on the processing

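The fall of C1qa, C1qb, C1qc, C1ra, C1s1, C2, C4b and C3 after anti-IL-9 kept its direction and stayed past the threshold under DESeq2, other scaling factors, no filter and each library left out, and Cfd did so except in the 4 fits named with it; 8 or 9 members were called, and 3516 to 4793 genes with a library left out. Where 1 library of a group remained, it was assumed to vary like the other group. In the genotype comparisons the number of called genes depended on the settings, and the cause was not tested. DESeq2 called 801 genes in non-stripped aorta, 536 in stripped aorta, 424 in fibroblasts (1 member) and 878 for the difference between tissues; without a filter 766, 64, 682 (3 members) and 159 were called; leaving out a library gave 0 to 486, 0 to 30, 3 to 10 and 0 to 242. In single cells the gene and class calls numbered 697 with the replicate block, 173 with DESeq2, 1572 with no filter and 49 to 3434 with a library left out, and the member calls 11, 2, 14 and 0 to 21, with 0 under RLE factors. The title's replicate numbers do not say that libraries are paired; deviations of same-numbered libraries correlated at 0.0528 in plasma cell-like to 0.580 in fibroblast-like cells, and the 11 calls with the block were C3 and C1s1 in macrophage-like (adjusted p = 0.00322 and 0.00971), monocyte-like (0.00622 and 0.000113), B cell-like (0.00868 and 0.0195) and plasma cell-like cells (0.0494 and 0.0498), C1ra in monocyte-like cells (0.00670), and C1qa and C1qc in lymphatic endothelial-like cells (0.0241 and 0.00518), all positive. The adipocyte-like level of Cfd was 10235 CPM with finer clustering. An upper quartile factor was not run for the difference between tissues. No called value changed sign. Among values that were not called, log2 fold changes that changed sign were 0.00075 for C1qb in stripped aorta with upper quartile factors, 0.012 for mesothelial-like C1s1 with the replicate block, -0.13 for adipocyte-like C4b with no filter and 0.38 for adipocyte-like Cfd with finer clustering. With a library left out, the ranges in non-stripped aorta were -0.13 to 0.10 for C1qa, -0.11 to 0.18 for C1qb, -0.046 to 0.18 for C1qc, -0.18 to 0.14 for C1ra, -0.025 to 0.18 for C1s1, -0.25 to 0.26 for C2, -0.11 to 0.042 for C3, -0.33 to 0.50 for C4b and -0.099 to 0.45 for Cfd. In stripped aorta they were -0.15 to 0.081 for C1qa, -0.11 to 0.11 for C1qb, -0.23 to 0.011 for C1qc, -0.34 to 0.078 for C1ra, -0.29 to 0.15 for C1s1 and -0.56 to 0.070 for C3. In fibroblasts they were -0.14 to 0.17 for C1s1, -0.30 to 0.077 for C2, -0.49 to 0.051 for C3, -0.066 to 0.44 for C4b and -0.076 to 0.16 for Cfd. For the difference between tissues they were -0.14 to 0.15 for C1qa, -0.15 to 0.20 for C1qb, -0.14 to 0.33 for C1ra, -0.11 to 0.38 for C1s1, -0.013 to 0.70 for C2, -0.14 to 0.54 for C3 and -0.86 to 0.073 for C4b. In single cells they were -0.45 to 0.50 for adipocyte-like C4b, -0.48 to 0.21 for adipocyte-like Cfd, -0.59 to 0.037 for fibroblast-like C1s1, -0.60 to 0.024 for macrophage-like C1qa, -0.38 to 0.091 for macrophage-like C1qb, -0.82 to 0.029 for macrophage-like C4b, -0.51 to 0.28 for mesothelial-like C1ra, -0.26 to 0.26 for mesothelial-like C1s1 and -0.47 to 0.025 for mesothelial-like C3. Depth limits the single-cell tests: 5 of the 9 members passed the count filter in adipocyte-like, pericyte-like and T and NK-like cells.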

Other observations

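A small macrophage-like cluster led by the interferon-response genes Ifit2, Rsad2 and Ifit3 held 93 and 47 cells of TKO 1 and TKO 2 and 17 and 7 cells of Cre 1 and Cre 2, and whether its size differs between genotypes was not tested. In its TKO libraries it had 3156 and 3057 CPM of C1qa and 725 and 455 CPM of C4b, the Cre libraries having too few cells for a level.

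Among complement genes outside the 9, those with the smallest p in the genotype comparisons did not pass the adjustment. Itgam, a chain of complement receptor 3, had 6.35 ± 2.53 CPM in TKO and 3.29 ± 0.13 CPM in Cre non-stripped aorta (adjusted p = 0.141), and 46.6 ± 11.8 CPM in TKO and 31.8 ± 3.3 CPM in Cre stripped aorta (adjusted p = 0.245). C5ar2 had 0.257 ± 0.302 CPM in TKO and 0.992 ± 0.227 CPM in Cre non-stripped aorta (adjusted p = 0.183), values that rest on few counts. Cd59a, an inhibitor of the membrane attack complex, had 92.2 ± 4.4 CPM in TKO and 69.3 ± 6.8 CPM in Cre stripped aorta (adjusted p = 0.219).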
